A study of Rattus norvegicus with 52 samples.

Results

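The alpha-2u globulins were represented by 2 of the 8740 non-control probe sets on the arrays, j00738_s_at and m27434_s_at, taken as every row whose ID begins with j00738 or m27434. The pair was picked by readout: j00738_s_at was chosen from its fall between 0.29% and 0.54% CA in entire and stained liver sections, so that its dose differences in those sections are given as a description, without a test. The series hybridised liver total RNA of F344 rats, an inbred laboratory strain, to 52 one-colour arrays. Treated rats received clofibric acid (CA), a lipid-lowering fibrate and agonist of the nuclear receptor PPARalpha, at 0.29% or 0.54%, and the controls were untreated (0%). The 15 groups crossed these doses with 5 section preparations. Entire sections comprised 8 control, 8 0.29% and 6 0.54% arrays, and stained sections comprised 8 control, 7 0.29% and 5 0.54% arrays. Dehydrated sections and sections held for the reference time of laser capture microdissection (LCM) had 1 array at each dose, and microdissected sections had 2 control arrays and 1 array at each CA dose. The labels used here do not give the route or length of treatment, the age or sex of the rats, or which cells were captured by microdissection. Nor do they say whether sections of different preparations came from the same rats, or whether replicates are different rats. The p-values therefore reflect only how far these samples scatter, part or all of which may be technical.

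Alpha-2u globulin is the major urinary protein of the adult male rat, a small secreted lipocalin that carries hydrophobic ligands such as odorants in its barrel-shaped pocket. It is encoded by a cluster of closely related genes and made mainly by hepatocytes, where androgens, glucocorticoids, thyroid hormone and the male pattern of growth hormone secretion raise its mRNA and oestrogen lowers it. The protein is filtered by the kidney, and its accumulation there with certain bound hydrocarbons causes a nephropathy particular to male rats.

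In the RefSeq annotation of the GRCr8 rat assembly, the family was taken by symbol, as chromosome 5 genes named Obp3 or Mup with a number. Copies under other symbols were not looked for. Those taken span chr5:79637234-80583395, with 7 protein-coding genes (Obp3, Mup4l4, Mup4, Mup18, Mup5, Mup4l1 and Mup4l3) and 8 pseudogenes. No table used here pairs either probe set with one of these genes: 0 of the 2 IDs matched the reference, and the name alpha-2u globulin is the one given for these IDs, not one read from the arrays. On Affymetrix arrays, whose ID style the table shares, the suffix _s_at marks probes that can bind several related transcripts, so the signal of each probe set may come from more than 1 gene copy. The upstream sequences below show 2 closely alike copies. They are the 250 bases before the transcript starts of Mup4 (chr5:79759497-79759746) and Mup4l4 (chr5:79707808-79708057), both on the minus strand, written 5′ to 3′, with capitals marking the match to the C/EBP-type motif TTGCNNAA.
Mup4: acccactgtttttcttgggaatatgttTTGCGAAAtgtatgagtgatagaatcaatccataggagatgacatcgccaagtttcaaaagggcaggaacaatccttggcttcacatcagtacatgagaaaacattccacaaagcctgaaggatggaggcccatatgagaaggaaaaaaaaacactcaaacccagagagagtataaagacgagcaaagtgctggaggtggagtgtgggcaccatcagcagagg
Mup4l4: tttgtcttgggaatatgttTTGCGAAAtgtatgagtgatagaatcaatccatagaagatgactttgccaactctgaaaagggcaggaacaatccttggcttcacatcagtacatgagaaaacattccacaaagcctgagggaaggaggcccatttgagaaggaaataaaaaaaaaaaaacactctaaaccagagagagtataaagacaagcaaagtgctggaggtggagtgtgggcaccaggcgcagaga
These upstream sequences were identical at 225 of 242 aligned bases (93.0%), whereas that of Mup18 was only 42.9% to 51.1% identical to those of the 6 other protein-coding genes, while those 6 shared 90.1% to 97.4% with one another. Searched on both strands, TTGCNNAA occurred in 5 of the 7 family promoters (Obp3, Mup4l4, Mup4, Mup5 and Mup4l3). Among 33469 rat promoters of the same length it occurred in 9.22%. The upstream sequences of those 5 genes were 92.8% to 97.4% identical to one another, so their matches are not independent counts. Enrichment over all promoters was not tested. The letters TTCNNNGAA (STAT5-type) occurred in 1 of 7 (Mup4l1), against 7.67% of all, and TGTTCT (steroid receptor half-site) in 1 of 7 (Obp3), against 17.5% of all. AGGTCA (nuclear receptor half-site) occurred in 0 of 7, against 14.1% of all. In the 250 bases printed for Mup4 and Mup4l4 only the first motif was found, with no overlap with another. A match is a description of the letters and not evidence of a bound site.

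Before the values, several features of the arrays bear on them. Both probe sets were above the floor of 4 intensity units on all 52 arrays. The m27434_s_at signal ranked between 1 and 28 in brightness among all probe sets on every array, and was among the 10 brightest on 39 of them. Quantile normalization, which gives each rank the same value on every array, leaves such a probe set little room to move, and its differences on the deposited intensity scale, with each array's log2 values only centred on their median, are therefore given beside the normalized ones. The 3′ to 5′ ratio of the GAPDH control probe sets, which rises as RNA is degraded or incompletely copied, had a median of 8.45 over the 20 stained arrays (2.59 to 18.9), against 1.54 over the 22 entire-section arrays (1.18 to 6.49). A check of the liver label against hepatocyte markers could not be made, because the probe sets used here carry no gene names.

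The j00738_s_at signal was lower with CA than in controls in each of the 5 preparations, and lower at 0.54% than at 0.29% CA. In entire sections the deposited intensity ran from 3004 to 4597 in controls (median 3740.5), from 697 to 1657 at 0.29% CA (median 1358.5) and from 289 to 498 at 0.54% CA (median 355.5). No array of one dose overlapped those of another, and the group means were 3686 ± 509 (SD, n = 8), 1295 ± 276 (n = 8) and 381 ± 85.2 (n = 6) intensity units. On the normalized log2 scale the means were 11.82 ± 0.13, 10.13 ± 0.43 and 8.27 ± 0.36 in the same order. These sections are bulk tissue, in which fewer cells carrying a transcript and less of it per cell cannot be told apart.

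In stained sections the same order held at a somewhat brighter level. Controls ran from 4094 to 7161 intensity units (median 4786.5), and 0.29% CA arrays from 756 to 2431 (median 1819). The 5 arrays at 0.54% CA read 785, 474, 429, 645 and 251. The lowest control was above every CA array, whereas the highest 0.54% CA array (785) lay just above the lowest 0.29% CA array (756). On the normalized log2 scale these doses did not overlap, at 10.22 to 11.15 with 0.29% CA and 8.09 to 9.49 with 0.54% CA. Normalized log2 means were 12.19 ± 0.18 (SD, n = 8) in controls, 10.66 ± 0.34 (n = 7) at 0.29% CA and 8.78 ± 0.55 (n = 5) at 0.54% CA.

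**Figure D1:**
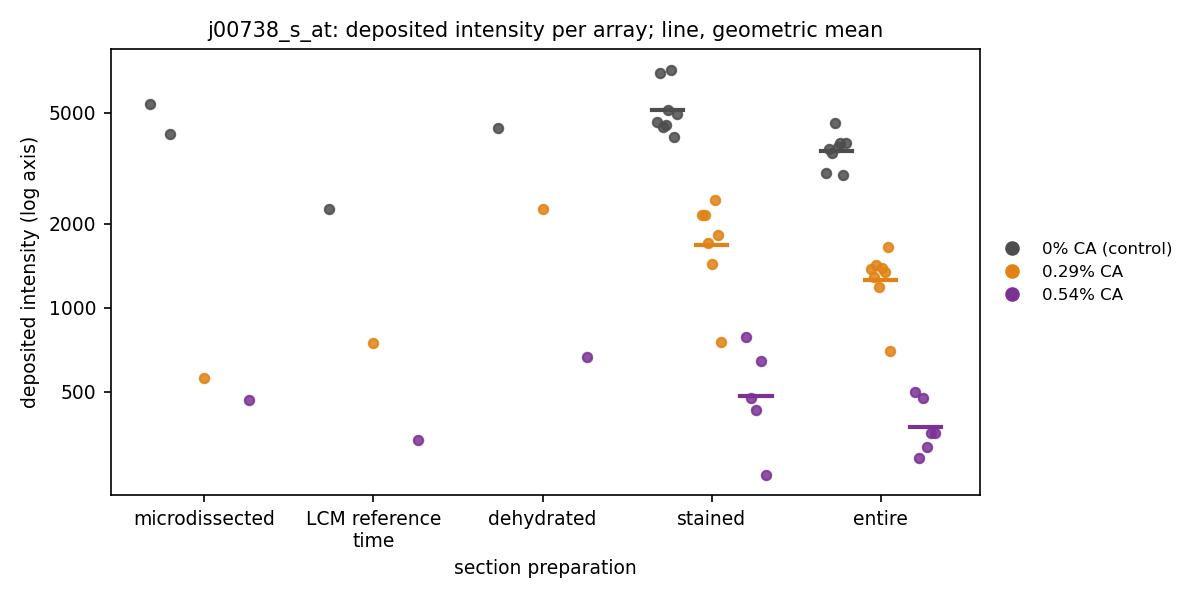
Deposited intensity of j00738_s_at on each of the 52 arrays (points, log axis), by section preparation and CA dose, with horizontal bars at the geometric means of entire and stained groups. In entire sections the 3 doses do not overlap, from 289 to 498 at 0.54% CA up to 3004 to 4597 in controls, and every CA array lies below all controls of its own preparation.

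Averaged over both doses, the normalized j00738_s_at signal fell with CA in entire sections (log2 difference -2.49 ± 0.15, SE, 14 CA arrays against 8 controls), with limma's moderated test giving an adjusted p of 2.66e-11 over 7804 probe sets. That is 5.60-fold lower in CA-treated than in control sections, with all 14 CA arrays below all 8 controls. In stained sections the log2 difference was -2.31 ± 0.17 (12 CA arrays against 8 controls), or 4.95-fold lower with CA, with a limma adjusted p of 1.79e-08 over 7913 probe sets. Both tests set all CA arrays against controls, and these CA arrays are the ones whose step between the doses picked j00738_s_at. How far that choice bears on the p-values, or on the standing of j00738_s_at among all probe sets given next, was not tested. The share of probe sets called lower with CA was 8.32% in entire and 3.65% in stained sections. Only 13 probe sets in entire and 21 in stained sections had a more negative CA difference than j00738_s_at, and the median difference over all probe sets was 0.00 in entire and -0.02 in stained sections. The CA difference in stained sections minus that in entire sections was 0.18 ± 0.22 for j00738_s_at (limma adjusted p = 0.873, 95% interval from -0.27 to 0.62), while 0.195% of all probe sets were called different between the preparations.

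By dose, as a description, entire sections at 0.29% CA lay 3.23-fold below control (log2 difference -1.69 ± 0.16, SE) and those at 0.54% CA 11.7-fold below control (difference -3.55 ± 0.18). In stained sections the corresponding folds were 2.88 (difference -1.52 ± 0.20) and 10.6 (difference -3.40 ± 0.22). The step between the doses, which chose the probe set, was -1.86 ± 0.18 in entire and -1.88 ± 0.22 in stained sections, 3.62-fold and 3.68-fold lower at 0.54% than at 0.29% CA. The 2 dose comparisons within a preparation share their control arrays. Ordered by normalized level, the 6 entire and stained groups ran entire 0.54% CA, stained 0.54% CA, entire 0.29% CA, stained 0.29% CA, entire control and stained control. The lowest neighbours in that order differed by 0.51, less than the larger of their SDs (0.55), and the other neighbours differed by more than theirs. Ranges of neighbours overlapped at each step but that between stained 0.29% CA and entire control, where the gap in means was 1.15.

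The 10 arrays of the other preparations, which played no part in picking the probe set, gave the same order of doses. They may hold sections of the same rats as the entire and stained arrays. Dehydrated sections read 4410, 2262 and 665 intensity units at 0, 0.29% and 0.54% CA, and sections of the LCM reference time read 2265, 749 and 335. The 2 microdissected controls read 5402 and 4196, against which the 0.29% CA array read 561 and the 0.54% CA array 468. Each preparation descended with dose, and every CA array was below the controls of its own preparation. The GAPDH 3′ to 5′ ratio also differed with dose on these arrays. At 0, 0.29% and 0.54% CA it was 6.36, 11.8 and 14.3 in dehydrated sections, and 7.28, 3.12 and 4.70 at the LCM reference time. In microdissected sections it was 14.3 and 9.22 in controls, 6.20 at 0.29% CA and 3.02 at 0.54% CA. In a fit with preparation and dose as additive terms, the CA minus control difference was -2.25 ± 0.32 on the log2 scale (SE, 6 CA arrays against 4 controls), which is 4.76-fold lower with CA (limma adjusted p = 0.0270 over 7779 probe sets, of which 0.18% were called lower). This call depended on single arrays, since it was lost on leaving out any 1 of the 10 except the dehydrated control (differences -2.51 to -2.11, adjusted p up to 0.173). The 0.54% CA arrays were lower than the 0.29% CA arrays in 3 of 3 preparations, with a fitted difference of -1.36 ± 0.39 (2.57-fold lower at 0.54% CA). That difference did not pass limma's test over all probe sets (unadjusted p = 0.00848, adjusted p = 1), where 0% of probe sets were called lower and 257 in either direction had an unadjusted p under 0.05. A fit of all 15 groups gave the same difference, but groups of 1 array add nothing to the replicate spread there. That spread came from entire and stained arrays and the 2 microdissected controls. A p-value from it would not measure the scatter of the arrays compared.

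The second probe set, m27434_s_at, was bright everywhere and moved much less. In entire sections its deposited intensity ran from 4539 to 9725 in controls (median 8556.5), from 3949 to 8194 at 0.29% CA (median 6850) and from 3637 to 8439 at 0.54% CA (median 5026.5). The means stood in descending order of dose, at 8036 ± 1803 (SD, n = 8), 6498 ± 1403 (n = 8) and 5418 ± 1613 (n = 6), but the 3 ranges overlapped broadly. In stained sections controls ran from 7212 to 23516 (median 12812) and 0.29% CA arrays from 7489 to 13040 (median 9353), and the 5 arrays at 0.54% CA read 9760, 8106, 6070, 6339 and 9058. The ranges overlapped here too.

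On the normalized scale m27434_s_at did not pass the test for CA in either preparation. CA-treated entire sections differed from controls by -0.15 ± 0.09 log2 units (SE, limma adjusted p = 0.298, 95% interval -0.33 to 0.03) and stained sections by -0.16 ± 0.10 (adjusted p = 0.432, interval -0.37 to 0.05). In entire sections the difference was called on leaving out 1 control array (replicate 7, at 4539), at -0.22 with a limma adjusted p of 0.0365. It was not called on leaving out every entire-section array with a GAPDH ratio above 4, replicate 7 among them (-0.20, limma adjusted p = 0.0788). On the deposited scale the differences were wider, at -0.42 in entire sections (limma adjusted p = 0.111) and -0.68 in stained sections (adjusted p = 0.0453), so that a lower m27434_s_at signal with CA was called in stained sections on that scale alone. No neighbouring groups in the order of its normalized levels differed by more than the larger of their SDs. As a description, the 0.54% minus 0.29% CA difference was -0.14 ± 0.10 in entire and -0.21 ± 0.13 in stained sections, and on the deposited scale -0.27 ± 0.20 and -0.47 ± 0.25. Against control, also as a description, normalized entire sections differed by -0.09 ± 0.10 at 0.29% CA and -0.22 ± 0.10 at 0.54% CA. Stained sections differed by -0.08 ± 0.11 and -0.28 ± 0.13. The 95% intervals at 0.54% CA were -0.44 to -0.006 in entire and -0.55 to -0.02 in stained sections, not adjusted over probe sets.

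**Figure D2:**
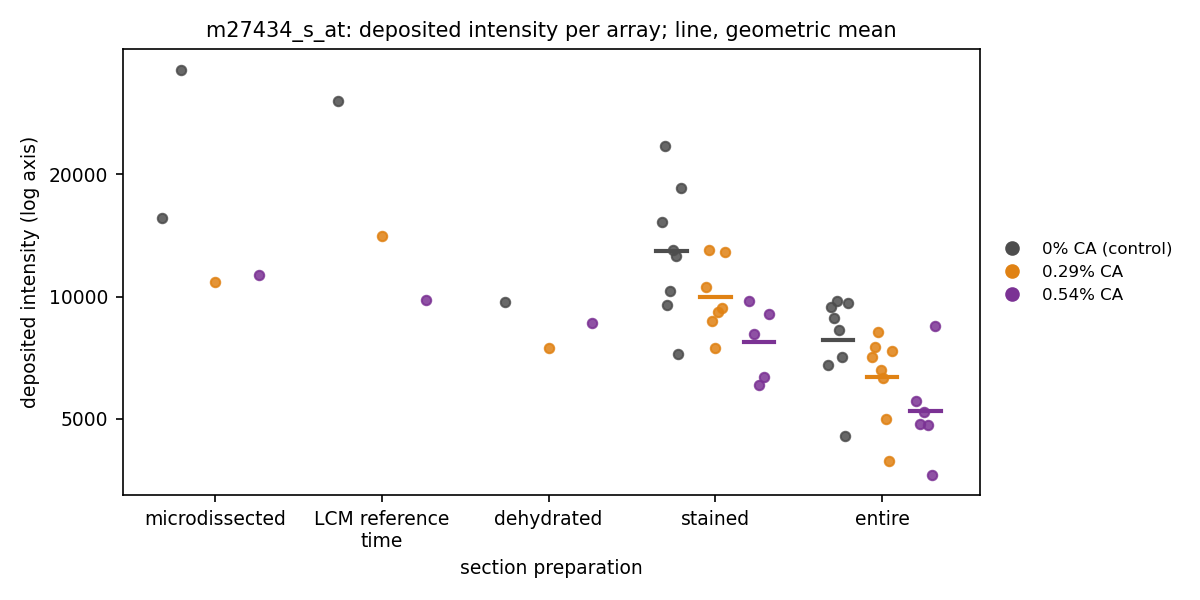
Deposited intensity of m27434_s_at on each of the 52 arrays (points, log axis), by section preparation and CA dose, with horizontal bars at the geometric means of entire and stained groups. The doses overlap in entire and stained sections, and the highest readings are a microdissected control (36181) and the control of the LCM reference time (30240).

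In the other preparations m27434_s_at read 9692, 7475 and 8604 intensity units in dehydrated sections at 0, 0.29% and 0.54% CA, with no steady descent. It read 30240, 14065 and 9808 in sections of the LCM reference time. The microdissected controls read 15575 and 36181 and the CA arrays 10829 at 0.29% and 11286 at 0.54%, so that both CA arrays lay below both controls, which themselves differed widely. Over these 10 arrays the normalized CA difference was -0.28 ± 0.28 (limma adjusted p = 0.755) and the 0.54% minus 0.29% CA difference -0.03 ± 0.35. On the deposited scale they were -0.86 ± 0.48 (limma adjusted p = 0.655) and -0.17 ± 0.60 (adjusted p = 0.995).

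**Figure D3:**
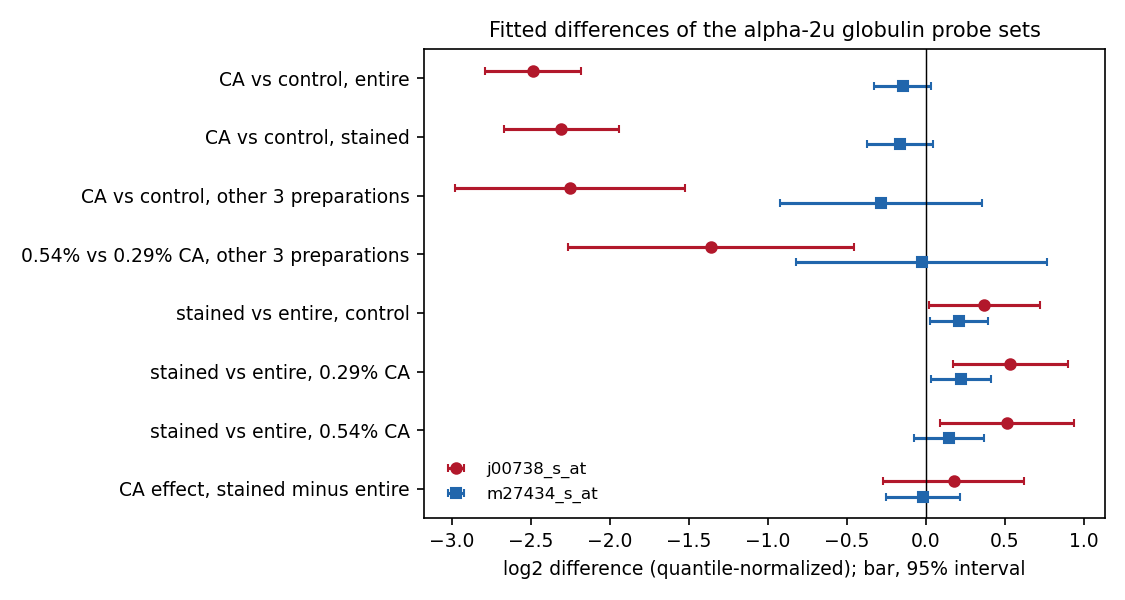
Fitted log2 differences of the normalized intensity for both probe sets, with 95% intervals, for CA, dose and stained against entire sections. The CA differences of j00738_s_at lie between -2.49 and -2.25 in entire sections, stained sections and the 10 other arrays, and those of m27434_s_at lie between -0.28 and -0.15 with intervals that include 0.

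The unequal change of the 2 probe sets was measured within each array as the log2 ratio of their deposited intensities, which needs no scaling between arrays. Its zero has no meaning, since probes differ in brightness, so only differences between groups are read. The step between the doses in entire and stained sections holds the values that picked j00738_s_at, and the test below sets all CA arrays against controls, which pools those same arrays. How far that choice bears on the p-values was not tested, and the ratio was not tested in the other preparations. In entire sections the ratio averaged -2.96 ± 0.93 with CA (SD, n = 14) and -1.10 ± 0.26 in controls (n = 8), a difference of -1.87 (exact permutation test, two-sided, p = 2.5e-05, adjusted over 2 tests 2.5e-05). In stained sections it averaged -3.17 ± 1.0 with CA (n = 12) and -1.33 ± 0.42 in controls (n = 8), a difference of -1.84 (exact permutation test, two-sided, p = 1.59e-05, the smallest these arrays allow, adjusted 2.5e-05). The CA and control ratios overlapped in entire sections and just missed each other in stained ones. By dose, the ratio averaged -1.10 ± 0.26, -2.33 ± 0.61 and -3.81 ± 0.47 in entire sections at 0, 0.29% and 0.54% CA, and -1.33 ± 0.42, -2.57 ± 0.70 and -4.01 ± 0.71 in stained sections, given as a description. Dehydrated sections went the same way, at -1.14, -1.72 and -3.69. Sections of the LCM reference time began low, at -3.74 in the control, and reached -4.23 and -4.87 with CA. The 2 microdissected controls differed from each other (-1.53 and -3.11), and the CA arrays read -4.27 at 0.29% and -4.59 at 0.54%.

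**Figure D4:**
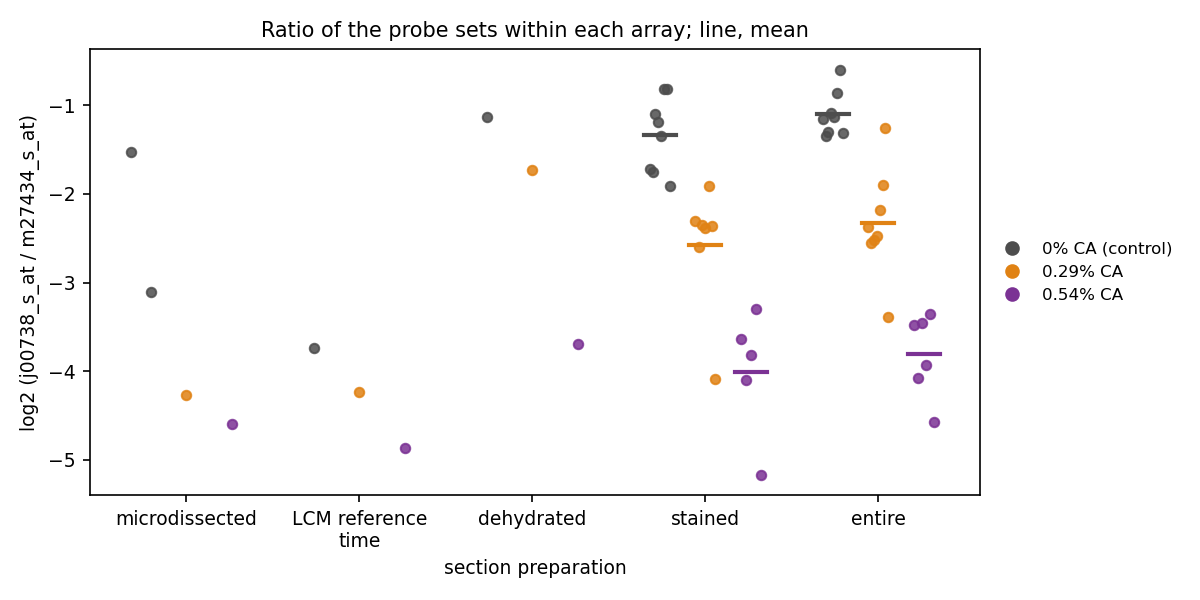
Within-array log2 ratio of the deposited intensities of j00738_s_at over m27434_s_at on each array (points), by section preparation and CA dose, with bars at the means of entire and stained groups. The ratio is lower with CA in each preparation, averaging -3.81 at 0.54% CA against -1.10 in controls of entire sections.

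Between stained and entire sections of the same dose, 1 of the 6 comparisons of the alpha-2u globulin probe sets passed the test on the normalized scale, that of j00738_s_at at 0.29% CA. At 0.29% CA j00738_s_at was 1.45-fold higher in stained than in entire sections (0.53 ± 0.18 log2, limma adjusted p = 0.0269 over 8191 probe sets, of which 11.7% were called higher in stained sections). In controls the difference was 0.37 ± 0.17 (adjusted p = 0.106, with 16.4% of probe sets called higher) and at 0.54% CA 0.51 ± 0.21 (adjusted p = 0.128, with 4.92% called higher), neither of which passed. On the deposited scale the stained sections were higher by 1.02 in controls (adjusted p = 8.48e-05), 0.83 at 0.29% CA (adjusted p = 0.0021) and 0.68 at 0.54% CA (adjusted p = 0.0533), a scale on which the median of all probe sets was itself higher in stained sections by 0.42, 0.33 and 0.27. For m27434_s_at the stained minus entire difference on the normalized scale was 0.21 ± 0.09 in controls (adjusted p = 0.0760), 0.22 ± 0.09 at 0.29% CA (adjusted p = 0.0855) and 0.15 ± 0.11 at 0.54% CA (adjusted p = 0.482). On the deposited scale it was 1.25, 1.07 and 0.87 (limma adjusted p = 5.3e-06, 0.000164 and 0.0135).

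The GAPDH 3′ to 5′ ratio moved with this comparison, with a median of 10.2 in stained controls against 1.36 in entire controls 7.32 against 1.35 at 0.29% CA and 4.47 against 2.16 at 0.54% CA. With that ratio as a covariate the j00738_s_at difference between stained and entire sections was 0.02 in controls (limma adjusted p = 0.983), 0.25 at 0.29% CA (adjusted p = 0.696) and 0.35 at 0.54% CA (adjusted p = 0.460). In controls the SE rose from 0.17 to 0.25 with the covariate. The ratio there ran from 4.66 to 18.9 in stained and from 1.25 to 6.25 in entire sections. Because it differs so much between the preparations, this fit cannot tell the ratio from the preparation. For m27434_s_at the same covariate gave wider differences than without it, 0.30 in controls (adjusted p = 0.230), 0.29 at 0.29% CA (adjusted p = 0.200) and 0.19 at 0.54% CA (adjusted p = 0.435). Leaving out single arrays also ended the call at 0.29% CA: the difference was 0.40 without entire 0.29% replicate 8 (adjusted p = 0.0839), 0.45 without stained 0.29% replicate 5 (0.0819), 0.50 without replicate 2 (0.0570) and 0.52 without replicate 6 (0.0507). At 0.54% CA, leaving out stained replicate 5, the dimmest array at 251, brought the difference to 0.69 (adjusted p = 0.0308).

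Over all 52 arrays, the probe set whose normalized log2 intensity most resembled that of j00738_s_at was j02657_s_at (Pearson r = 0.93), followed by m18335_f_at (r = 0.90), among the 2396 probe sets above the floor on every array. These arrays share the CA contrast, and the r is a description of the group pattern. The deposited intensity of j02657_s_at averaged 3448 ± 461, 2301 ± 252 and 1173 ± 121 in entire sections at 0, 0.29% and 0.54% CA (SD, n = 8, 8 and 6), so it too descended at each dose. That of m18335_f_at averaged 3306 ± 383, 1375 ± 231 and 900 ± 246, a descent of which most lay between control and 0.29% CA. The other alpha-2u globulin probe set, m27434_s_at, ranked 135 by the same measure (r = 0.62, against a median of 0.06 over all compared). When deviations from the group means were taken instead, over the 44 arrays of groups with more than 1 array, r with j00738_s_at was 0.27 for j02657_s_at, 0.34 for m18335_f_at and 0.20 for m27434_s_at, with a median of 0.06. Both had been chosen for their likeness over all arrays, and the highest r over deviations belonged to other probe sets (0.67, 0.59 and 0.58). No table used here names any of them.

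**Figure D5:**
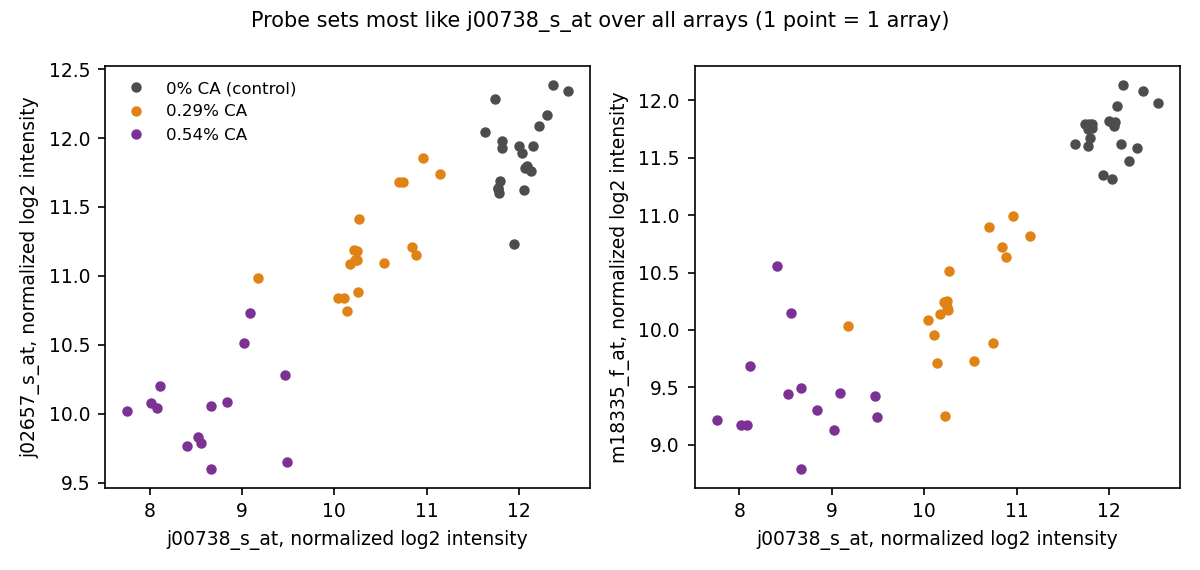
Normalized log2 intensity of j02657_s_at and m18335_f_at against that of j00738_s_at, 1 point for each of the 52 arrays, coloured by CA dose. The points run together from the 0.54% CA arrays at the low end to the controls at the high end (r = 0.93 and 0.90).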

How the data were processed

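The series deposited 1 table of intensities for 8799 probe sets (59 of them array controls) on 52 arrays, of F344 rat liver total RNA. The authors' deposited intensities are linear whole numbers, of which 20.6% to 30.1% per array are below 0. The sources used here do not give scanner software or scaling, and the number of arrays limits the precision. A floor of 4 intensity units, the 10th percentile of all values over 0, was set, and log2 intensities of the 8740 non-control probe sets were quantile normalized over all arrays. limma 3.58.1 in R 4.3.3 (lmFit, eBayes, two-sided) was fitted to entire sections, stained sections, both together, or the 10 remaining arrays, keeping probe sets that exceeded the floor on 1 or more of the arrays fitted. P-values were Benjamini-Hochberg adjusted over all of these, and a call means adjusted p under 0.05. The fit was tested on simulated data. The CA effect is the mean of all CA arrays minus controls. Single ratios were compared by exact permutation (SciPy 1.17.1). The members and lists were chosen with earlier results of these data known. The genes named are the 2 members and, by ID, the 2 probe sets most correlated with j00738_s_at. Lists of growth-hormone-regulated genes and cell type markers were not used, since 0 probe set IDs matched the RefSeq table. Alternatives were the deposited scale, floor, filter, array weights, trend, GAPDH ratio, replicate block, 6 arrays in doubt (GAPDH ratio above 4 in entire sections or 5S rRNA signal above 200 in stained sections) and leaving out each array. The 10 remaining arrays were not screened for doubt in this way, and their 5S rRNA signal reached 754 (microdissected, 0.54% CA).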

Additional observations from a re-analysis of the deposited data

Results flagged for a closer look

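In entire sections at 0.29% CA, j00738_s_at stood low on replicate 8, at 9.17 normalized log2 units (intensity 697). Its gap to the nearest of the other arrays was 0.569 of the range of the 8 arrays, above Dixon's critical value of 0.526. The GAPDH 3′ to 5′ ratio of that array was 1.29, within the range of its group. Without it, j00738_s_at remained lower with CA in entire sections, by a difference of -2.47 (limma adjusted p = 9.78e-13).

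Among the entire-section controls, m27434_s_at stood low on replicate 7, at 12.53 normalized log2 units (intensity 4539), with a gap of 0.584 of the range of the 8 arrays against the same critical value. The GAPDH ratio of that array was 6.25, the highest of its group, and its part in the low reading was not tested. In all, 12 sets of readings were examined in this way, and chance marks about 1 in 20. They are the entire and stained groups taken once for each probe set on the same arrays, so they are not independent.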

How the results depend on the processing

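The lower j00738_s_at signal with CA kept its direction and its call in entire and stained sections under all alternatives run: the difference ran from -2.53 to -2.28 in entire sections (adjusted p up to 1.48e-08) and from -2.52 to -2.17 in stained sections (up to 1.43e-05), and leaving out 1 array gave -2.59 to -2.36 and -2.42 to -2.14. Over the 10 other arrays the CA call was lost with the GAPDH ratio as a covariate (-2.10, adjusted p = 0.0875) and without the dehydrated (-2.51), LCM-reference-time (-2.21) or microdissected (-1.98) arrays, and leaving out 1 array gave -2.51 to -2.11. The dose difference there was called only in the fit to all 15 groups (-1.36). The replicate spread in that fit came from entire and stained arrays and the 2 microdissected controls. For stained against entire sections, j00738_s_at was called in controls on the deposited scale (1.02). At 0.29% CA the call was lost with the GAPDH covariate (0.25) and with a replicate block (0.48, adjusted p = 0.0506), and leaving out 1 array gave 0.40 to 0.62. At 0.54% CA it was called with array weights (0.66) and without the arrays in doubt (0.65), and leaving out 1 array gave 0.33 to 0.69. The stained minus entire difference of the CA effect turned sign on the deposited scale for j00738_s_at (-0.24), and for m27434_s_at with array weights (0.0040), without the arrays in doubt (0.0528) and on leaving out 1 array (-0.0602 to 0.0566), with no call in any. The m27434_s_at dose difference over the 10 other arrays turned sign without the LCM-reference-time arrays (0.0017) and on leaving out 1 array (-0.1180 to 0.0289). The cause of these changes was not tested. The labels give the replicate numbers no meaning, and not every same-numbered pair correlated above 0.1, so the numbers were not taken as pairs. By deviations from the group means, r of such pairs ran from -0.21 to 0.56. Between stained 0.29% CA and stained controls, 6 of 7 pairs were above 0.1 (median r 0.25, against -0.08 for other numbers). Between entire 0.29% CA and entire controls, 5 of 8 were (0.14 against 0.01). The medians were 0.06 against -0.02 between stained and entire 0.29% CA, and 0.017 against 0.018 between entire 0.54% CA and entire controls. Whether same-numbered arrays share a source was not tested. The replicate block changed no other call of either probe set (-2.50 for j00738_s_at with CA in entire sections). For m27434_s_at, stained against entire sections was called under 4 of 10 alternatives in controls and 4 of 10 at 0.29% CA, and on leaving out 1 array in 1 of 42 fits each. The single arrays of the smaller preparations carry no replicate spread.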
